A study of Rattus norvegicus with 8 samples.

Results

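The transcripts described here are 33 genes of the complement system and its lectin pathway, taken as a fixed list of gene names and looked up in the table of liver gene expression that the authors deposited. All 33 have a row among the 15115 genes of that table, and C4a has a second row, so 34 rows are described. Livers came from CDAA_PTS rats, male F344 rats of unmodified genotype on CDAA, a diet of defined L-amino acids that lacks choline, with pterostilbene at 1.34 g per kg of diet. They were set against livers of CDAA rats of the same strain, sex and genotype on that diet alone. Both groups ate the choline-sufficient form of the diet for the first 3 weeks of a study of 60 weeks, and for the CDAA_PTS rats that diet already held the compound. The labels give an age of 1 year and 4 sequenced rats per diet, out of 6 rats per diet in the study. Pterostilbene is a dimethylated relative of resveratrol, and the CDAA diet is used to bring about fatty liver and liver cancer in rats. Tissue taken in the study could be tumour, nodule or normal liver, and the labels do not say which of these a given library holds.

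Complement is a set of plasma proteins that mark and destroy foreign or damaged cells. The classical pathway starts when C1q binds antibody or pentraxins, the lectin pathway when mannose-binding lectins or ficolins bind sugars, and the alternative pathway turns over on C3 itself. All of them cleave C3 and then C5, after which C6 to C9 build a pore in the target membrane. The liver makes most of these proteins in hepatocytes, whereas the C1q chains, properdin, the ficolins of rodents and the anaphylatoxin receptors come mainly from macrophages and other myeloid cells.

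Most complement transcripts of the liver differed little in level between the diets, and 1 passed the test. Fcnb, which encodes the myeloid lectin ficolin-B, fell with pterostilbene, at 0.790 FPKM in CDAA_PTS livers against 3.02 in CDAA livers in the authors' deposited table. FPKM is a fragment count scaled to transcript length and sequencing depth, and the table has 1 such value per group, so no value or spread of single rats can be shown. The edgeR columns of the authors' deposited table call 1 of the 34 rows at an adjusted p under 0.05, against 3.41% of all genes (1.95% lower and 1.47% higher in CDAA_PTS). DESeq2 of the authors' deposited table calls 2 rows, against 4.46% of all genes with an adjusted p, and Cuffdiff calls 2, against 5.51%. The authors' edgeR values give 2 rows at an adjusted p under 0.1, against 5.27% of all genes, and 1 row where only genes of at least 1 CPM (a count per library scaled to its depth) are adjusted together, against 4.11%. The members' counts thus lie close to the share of all genes called. The 20 genes made mainly by hepatocytes, in 21 rows, had none called and a median edgeR log2 fold change of 0.0016, computed from the authors' deposited table. The 8 genes made mainly by myeloid cells had 1 called and a median of -0.09, and the 5 genes of other or several cell types had none called and a median of 0.23, from the same edgeR values. Over all genes the median edgeR log2 fold change of the authors' deposited table was 0.0063. All fold changes are CDAA_PTS over CDAA, and in whole-liver RNA fewer cells of a type and less RNA per cell cannot be told apart.

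Because Fcnb fell while its paralogue Fcna did not pass and had a value on the other side of 0, the 250 bases before the start of each gene are shown, from RefSeq on assembly GRCr8. Both are given on the gene's own strand, which is the minus strand, with Fcnb at chr3:31800189-31800438 and Fcna at chr3:28847238-28847487. Capitals mark matches to 6 short motifs searched on both strands: GAGGAA (the core of the PU.1 site), TTGCNNAA (C/EBP), GTTAAT (part of the HNF1 site), TTCNNNGAA (STAT), GGNNTTTCC (NF-kB) and TATAAA (the TATA box).
Fcnb: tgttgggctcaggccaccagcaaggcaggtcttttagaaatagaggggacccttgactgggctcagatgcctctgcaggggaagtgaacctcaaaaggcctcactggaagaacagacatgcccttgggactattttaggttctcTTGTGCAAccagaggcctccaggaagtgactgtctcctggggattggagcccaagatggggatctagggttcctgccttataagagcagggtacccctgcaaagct
Fcna: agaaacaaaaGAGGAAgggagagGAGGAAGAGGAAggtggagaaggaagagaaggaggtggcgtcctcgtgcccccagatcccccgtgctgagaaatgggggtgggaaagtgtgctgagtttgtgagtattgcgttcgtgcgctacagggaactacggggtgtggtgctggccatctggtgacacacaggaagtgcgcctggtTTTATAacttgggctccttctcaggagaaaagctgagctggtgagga

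Counted from the start of the gene, the C/EBP match of Fcnb lies at positions -106 to -99, and the 3 PU.1 core matches of Fcna begin at -240, -227 and -221. Both the C/EBP match of Fcnb and the TATAAA match of Fcna, at -47 to -42, are on the strand opposite to the gene. The Fcna match is thus not a TATA box in the direction of the gene. No match of one motif overlapped a match of another in these windows. Windows were found by symbol for 22 of the 33 genes. C1qc, C1s, C2, C5ar1, C7, C8g, C9, Cd59, Cfb, Clu and Masp2 had no match. The C/EBP letters stood in 6 of 14 windows of hepatocyte-made members (C1r, C3, C6, C8a, C8b and C4bpa) and in 1 of 6 of myeloid-made members, against 9.22% of 33469 RefSeq windows. The HNF1 letters stood in 4 of the 14 and 0 of the 6, against 6.45% of all windows. The PU.1 core stood in 4 of the 14 and in 3 of the 6 (C1qb, Cfp and Fcna), against 23.3%. The STAT letters were in 2 of 14 and 1 of 6 windows (7.67% of all), and the NF-kB letters in 1 of 14 and 1 of 6 (5.19%). The TATAAA letters, on either strand, were in 0 of 14 and 1 of 6 (12.9%). The 2 windows of other members, Cd55 and Cfd, held none of the 6. A match is a run of letters and not a shown binding site.

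**Figure D1:**
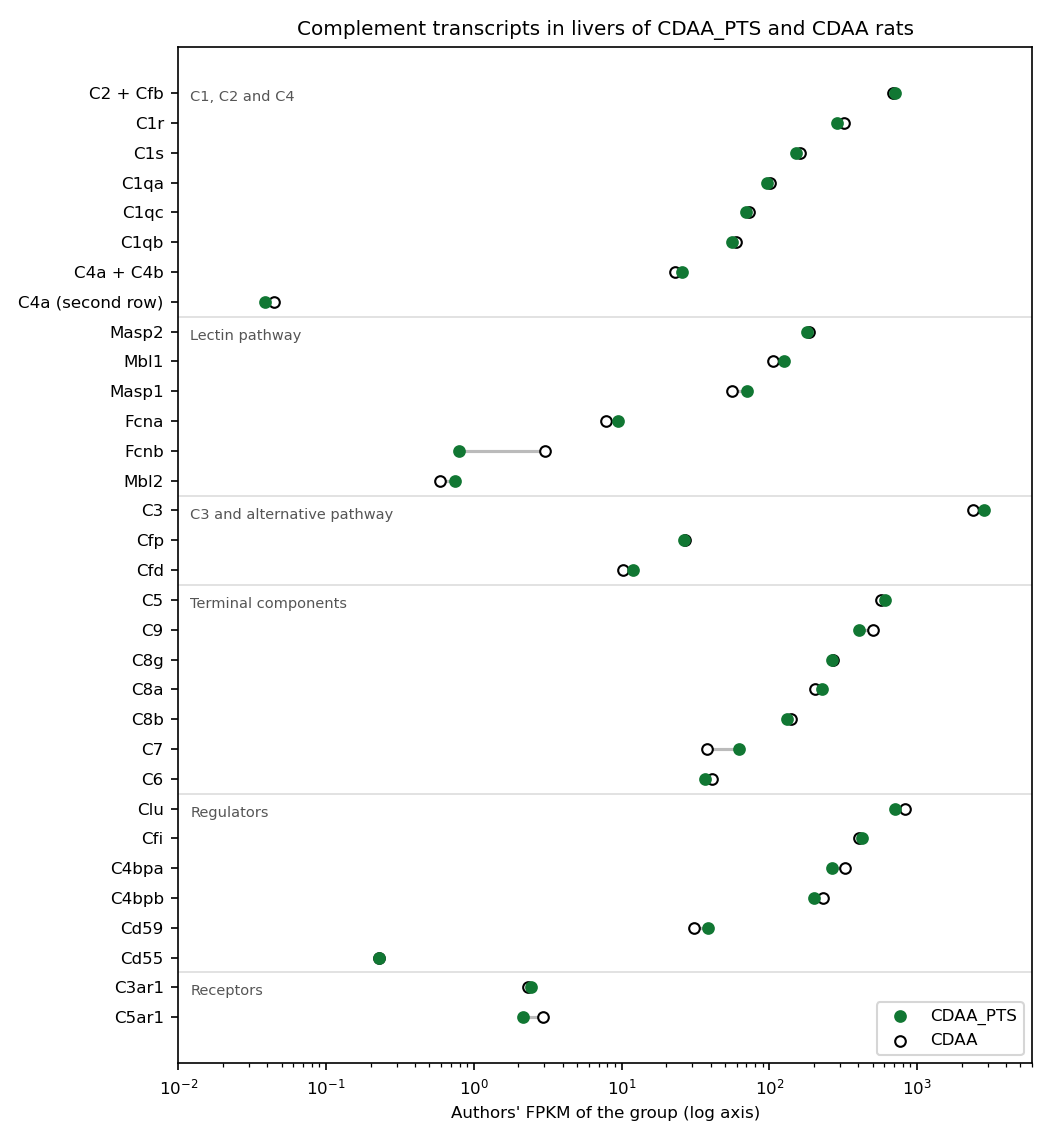
Level of each complement transcript as the authors' FPKM on a log axis, by role in the cascade, with filled points for CDAA_PTS and open points for CDAA (1 value per group, no error). Most pairs lie almost on top of each other, while Fcnb stands at 0.790 in CDAA_PTS and 3.02 in CDAA, and C7 at 62.1 in CDAA_PTS and 38.1 in CDAA; C2 shares a value with Cfb, and C4a with C4b.

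The classical pathway begins with the C1q chains, which together form the antibody-binding part of C1. C1qa stood at 96.2 FPKM in CDAA_PTS livers against 102 in CDAA livers, C1qb at 55.8 in CDAA_PTS and 59.3 in CDAA, and C1qc at 69.1 in CDAA_PTS and 72.8 in CDAA, by the authors' deposited table. The 3 genes lie within 17.7 kb of chromosome 5 in rn6 (155246446 to 155264143), and their edgeR log2 fold changes in the authors' deposited table lay between -0.088 and -0.086. The ratio of C1qa to C1qb was 1.72 in CDAA_PTS and 1.71 in CDAA, from those FPKM values. None of the chains passed, with edgeR adjusted p of 0.83, 0.83 and 0.85 in the authors' deposited table.

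The serine proteases of C1, C1r and C1s, of which C1s cuts C4 and C2, were more abundant than the C1q chains by FPKM. C1r stood at 285 FPKM in CDAA_PTS livers against 321 in CDAA livers, and C1s at 152 in CDAA_PTS and 161 in CDAA, in the authors' deposited table. Their edgeR log2 fold changes were -0.17 and -0.10 with adjusted p of 0.53 and 0.83 in the authors' deposited table. C2, which supplies the protease part of the classical C3 convertase, had a log2 difference of -0.09 by edgeR (adjusted p = 0.80) per the authors' deposited table. The FPKM of C2 cannot be separated from that of its neighbour Cfb, since the authors' deposited table gives both 1 Cuffdiff locus at 711 FPKM in CDAA_PTS livers against 689 in CDAA livers.

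C4a and C4b, the near-identical copies of the C4 gene, also share 1 FPKM locus, at 25.6 FPKM in CDAA_PTS livers against 23.1 in CDAA livers in the authors' deposited table. The edgeR columns give each its own value, with log2 fold changes of -0.02 for C4a and 0.50 for C4b in the authors' deposited table. Neither passed (edgeR adjusted p of 1.00 and 0.37, authors' deposited table), and reads of 2 such similar genes can be divided between them, so both values are uncertain. The second row named C4a, ENSRNOG00000047657, had a mean of only 0.395 CPM and an edgeR log2 fold change of 0.01 in the authors' deposited table.

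The lectin pathway held the member that fell and several others with values above 0. Fcnb (ENSRNOG00000009342, chromosome 3 of rn6, 6617750 to 6626284) had a log2 difference of -1.91 by edgeR (adjusted p = 0.0011) per the authors' deposited table. Its level with pterostilbene was thus 0.267 of that on CDAA alone by edgeR. DESeq2 values of the authors' deposited table, which are moderated toward 0, give -0.92 with an SE of 0.21 and an adjusted p of 0.0013. Cuffdiff gives a log2 ratio of -1.93 with a q of 0.0019 in the authors' deposited table. Fcnb was a low transcript, with a mean of 2.49 CPM over all libraries in the authors' deposited table, and without values per rat it cannot be said whether 1 rat carries the difference.

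Fcna, which encodes the ficolin of rodent macrophages, lies on the same chromosome and had a value on the other side of 0. It stood at 9.50 FPKM in CDAA_PTS livers against 7.90 in CDAA livers, a log2 difference of 0.25 by edgeR (adjusted p = 0.48) per the authors' deposited table. The ratio of Fcna to Fcnb was therefore 12.0 in CDAA_PTS and 2.62 in CDAA, from those FPKM values. The difference in response between these genes was not tested. The ficolins are similar in sequence and may share reads.

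Markers of the myeloid cells that could carry Fcnb are given beside it. Of 11 neutrophil markers 4 were measured, 1 was above 0, 3 were below 0 and none was called by edgeR. Csf3r was farthest from 0, at -0.66 (adjusted p = 0.39 by edgeR). The summed FPKM of the 4 was 10.9 in CDAA_PTS and 11.4 in CDAA, most of it from S100a8 and S100a9, in the authors' deposited table. The defining granule genes Mpo and Elane were on the list but were not among the 4 measured. All 7 Kupffer cell markers were measured, 4 were above 0, 3 were below 0 and none was called by edgeR. Their sums were 155.0 FPKM in CDAA_PTS and 158.8 FPKM in CDAA in the authors' deposited table. Of 14 macrophage markers 12 were measured and 8 were below 0, with sums of 276 FPKM in CDAA_PTS livers against 304 in CDAA livers in the authors' deposited table. Of these, Gpnmb and Itgax fell, with edgeR log2 fold changes of -0.462 and -0.997 and adjusted p of 0.013 and 0.00024 in the authors' deposited table. Over all genes, edgeR called 1.95% lower in CDAA_PTS, and 51.0% had a value above 0. None of the measured markers of these 3 lists is at 0 in either group. The part of cell numbers in the Fcnb result was not tested.

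The mannose-binding lectins were very unequal in level. Mbl1 stood at 126 FPKM in CDAA_PTS livers against 106 in CDAA livers, and Mbl2 at 0.740 in CDAA_PTS and 0.588 in CDAA, in the authors' deposited table. Mbl1 had a log2 difference of 0.23 by edgeR (adjusted p = 0.56) per the authors' deposited table. Mbl2 had a log2 difference of 0.82 by edgeR (unadjusted p = 0.012, adjusted p = 0.16) per the authors' deposited table. Cuffdiff gives Mbl2 a smaller log2 ratio of 0.33 with a q of 0.85 in the authors' deposited table, and among the members with an FPKM locus of their own this gap between tools was the widest, at 0.49.

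The proteases that the lectins carry were Masp1 and Masp2, and only Masp2 cuts both C4 and C2 with ease. Masp2 stood at 179 FPKM in CDAA_PTS livers against 184 in CDAA livers, with a log2 difference of 0.0016 by edgeR (adjusted p = 1.00) per the authors' deposited table. Masp1 stood at 70.8 FPKM in CDAA_PTS livers against 56.2 in CDAA livers, with a log2 difference of 0.32 by edgeR (unadjusted p = 0.056, adjusted p = 0.36) per the authors' deposited table. The ratio of Masp2 to Masp1 was 2.53 in CDAA_PTS and 3.28 in CDAA, from those values.

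C3, the component on which all pathways meet, was the most abundant complement transcript by FPKM in both groups. It stood at 2823 FPKM in CDAA_PTS livers against 2399 in CDAA livers in the authors' deposited table. That was 35.2% of the summed FPKM of the members in CDAA_PTS and 30.7% in CDAA, over 32 FPKM loci. The edgeR log2 fold change of C3 was 0.23 (adjusted p = 0.60) per the authors' deposited table. Its moderated DESeq2 value was 0.20, with a 95% interval of -0.08 to 0.47 made from the SE in the authors' deposited table, an interval that holds 0.

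None of the alternative pathway factors passed the test. Cfb, which forms the convertase with C3b, had an edgeR log2 fold change of 0.05, and properdin, the stabiliser of that convertase encoded by Cfp, had -0.02, with adjusted p of 0.96 and 0.99 in the authors' deposited table. Cfp stood at 26.6 FPKM in CDAA_PTS livers against 26.9 in CDAA livers in the authors' deposited table. Cfd, the protease that cuts factor B and is best known as an adipocyte product, stood at 12.0 FPKM in CDAA_PTS livers against 10.2 in CDAA livers (adjusted p = 0.75 by edgeR) per the authors' deposited table.

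**Figure D2:**
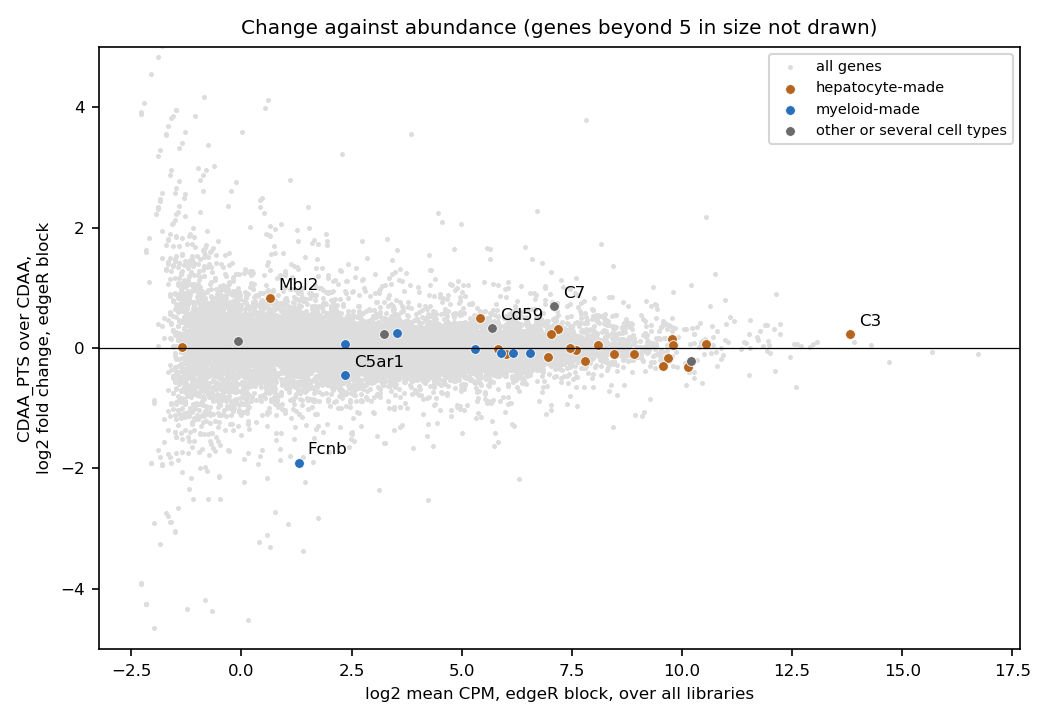
Change with pterostilbene (vertical, log2 of CDAA_PTS over CDAA, edgeR values of the authors' deposited table) against mean abundance over all libraries (horizontal, log2 CPM) for all genes in grey and for complement members in colour. Most members lie close to 0 over the whole range up to C3, while Fcnb stands at -1.91; the named points besides C3 are the 5 with an unadjusted p under 0.05.

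Terminal components, which assemble the membrane pore, had values on both sides of 0, and none passed by edgeR. C5, whose cleavage starts the assembly, stood at 604 FPKM in CDAA_PTS livers against 574 in CDAA livers, with a log2 difference of 0.07 by edgeR (adjusted p = 0.93) per the authors' deposited table. C9, which polymerises into the wall of the pore, stood at 403 FPKM in CDAA_PTS livers against 500 in CDAA livers, with a log2 difference of -0.32 by edgeR (unadjusted p = 0.081, adjusted p = 0.43) per the authors' deposited table. The ratio of C5 to C9 was 1.5 in CDAA_PTS and 1.15 in CDAA, from those values.

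The 3 chains of C8, which insert the complex into the membrane, had edgeR log2 fold changes of 0.15 for C8a, -0.10 for C8b and -0.03 for C8g in the authors' deposited table. Their levels were 228, 132 and 266 FPKM in CDAA_PTS, against 205, 141 and 268 FPKM in CDAA, in the authors' deposited table. C6 stood at 36.6 FPKM in CDAA_PTS livers against 40.6 in CDAA livers (adjusted p = 0.75 by edgeR) per the authors' deposited table.

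C7, which anchors the growing complex to the membrane and is made largely outside hepatocytes, had a value farther from 0 than C6 and C9. It stood at 62.1 FPKM in CDAA_PTS livers against 38.1 in CDAA livers, with a log2 difference of 0.70 by edgeR (unadjusted p = 0.049, adjusted p = 0.34) per the authors' deposited table. DESeq2 does not call it either (0.42, SE 0.21, adjusted p of 0.28), whereas Cuffdiff does with a q of 0.0019, in the authors' deposited table. C6, C7 and C9 lie between 54466279 and 55823826 on chromosome 2 of rn6, and C6 and C9 had edgeR values below 0. The ratio of C7 to C6 was 1.70 in CDAA_PTS and 0.937 in CDAA, from the FPKM values.

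Stellate cell and fibroblast markers, a possible source of C7, had values on both sides of 0. Of 11 such markers 10 were measured, 7 were above 0, 3 were below 0 and none was called by edgeR, their median edgeR value being 0.11 on the log2 scale and their summed FPKM 249 in CDAA_PTS and 236 in CDAA in the authors' deposited table. The matrix proteoglycan genes Dcn and Lum had edgeR log2 fold changes of 0.57 and 2.34 with adjusted p of 0.23 and 0.053, and Cuffdiff calls both with a q of 0.0019, in the authors' deposited table. DESeq2 does not call Dcn (adjusted p = 0.22) and gives Lum a moderated value of 0.59 with no p, in the authors' deposited table. Acta2, at 0.57 by edgeR (adjusted p = 0.68), has no DESeq2 p either. Without values per rat it cannot be said whether 1 rat carries the Lum or the Acta2 value. Below 0 were Des at -0.25, Reln at -0.19 and Col1a1 at -0.03 by edgeR of the authors' deposited table. None of the 10 is at 0 in either group. The part of these cells in the C7 value was not tested.

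Regulators limit complement on host cells and in plasma. Cd59, which keeps C9 from polymerising on host membranes, came nearest to the threshold among the uncalled members. It stood at 38.5 FPKM in CDAA_PTS livers against 30.7 in CDAA livers, with a log2 difference of 0.33 by edgeR (unadjusted p = 0.0031, adjusted p = 0.072) per the authors' deposited table. DESeq2 does call Cd59, at 0.31 with an SE of 0.10 and an adjusted p of 0.037, while Cuffdiff does not with a q of 0.18, in the authors' deposited table. Cd55, which takes apart C3 convertases on membranes, was barely detected, at 0.227 FPKM in CDAA_PTS livers against 0.228 in CDAA livers in the authors' deposited table.

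The plasma regulators made by hepatocytes included Cfi, the protease that inactivates C3b and C4b, at 422 FPKM in CDAA_PTS livers against 406 in CDAA livers in the authors' deposited table. C4bpa and C4bpb encode the chains of C4b-binding protein, a cofactor for that protease, and lie close together on chromosome 13. They stood at 267 and 199 FPKM in CDAA_PTS, against 325 and 230 FPKM in CDAA, in the authors' deposited table. Both edgeR log2 fold changes were below 0, at -0.29 and -0.22, with adjusted p of 0.64 and 0.75 in the authors' deposited table. Clu, whose product clusterin binds terminal complexes in plasma and which many cell types make, stood at 709 FPKM in CDAA_PTS livers against 825 in CDAA livers, with a log2 difference of -0.22 by edgeR (adjusted p = 0.42) per the authors' deposited table.

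The receptors for the C3a and C5a peptides sit on myeloid cells. C5ar1 stood at 2.14 FPKM in CDAA_PTS livers against 2.93 in CDAA livers, with a log2 difference of -0.45 by edgeR (unadjusted p = 0.021, adjusted p = 0.22) per the authors' deposited table. C3ar1 stood at 2.43 FPKM in CDAA_PTS livers against 2.32 in CDAA livers, with a log2 difference of 0.06 by edgeR (adjusted p = 0.97) per the authors' deposited table.

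**Figure D3:**
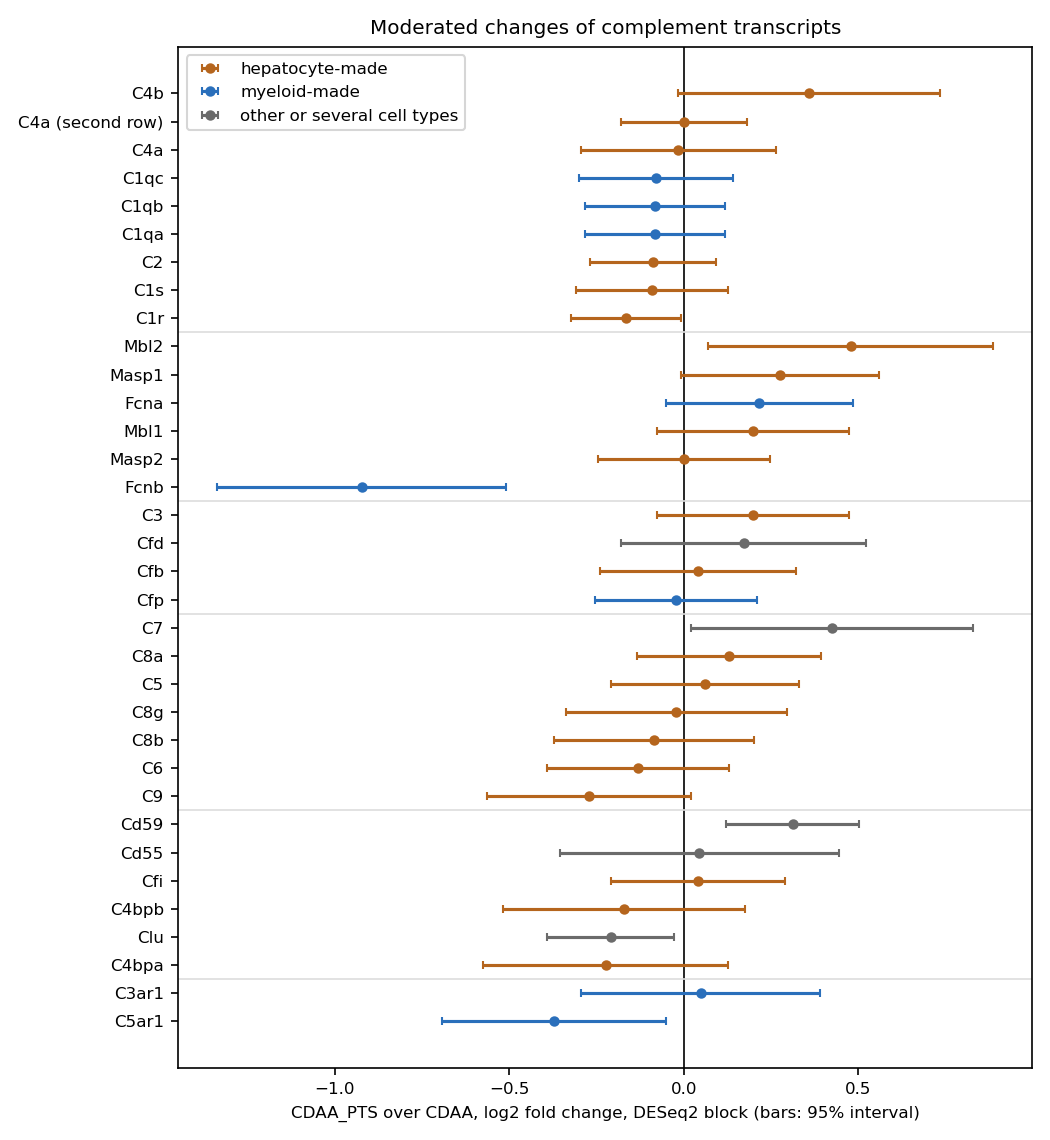
Moderated log2 fold change of each member with its 95% interval (points and bars, DESeq2 values of the authors' deposited table), by role in the cascade and coloured by main source of the transcript. Values are moderated toward 0, and the bars do not bound the unmoderated sizes, least of all at low counts. The interval of Fcnb runs from -1.34 to -0.51, and that of Cd59 from 0.12 to 0.50; most others cross 0, those of C1r, Mbl2, C7, Clu and C5ar1 excepted.

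Read together, the hepatocyte-made members summed to 6932 FPKM in CDAA_PTS livers against 6630 in CDAA livers, a ratio of 1.05, and without C3 the ratio was 0.971, from the authors' deposited table. The myeloid-made members summed to 262 FPKM in CDAA_PTS livers against 277 in CDAA livers, a ratio of 0.948. Of the 21 hepatocyte-made rows 11 had an edgeR log2 fold change above 0, and of the 8 myeloid-made rows 2 did, in the authors' deposited table. Over all genes 51.0% were above 0. The middle values of the myeloid-made members are those of the neighbouring C1q chains. The difference between the hepatocyte-made and myeloid-made groups was not tested.

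Of the 34 rows, 15 (44.1%) had an edgeR log2 fold change under 0.1 in size, against 33.1% of all genes, in the authors' deposited table. A size of at least 0.5 was found for 4 rows (Fcnb, Mbl2, C7 and C4b), or 11.8%, against 13.9% of all genes. The median abundance of the members was 128 CPM, however, against 12.9 CPM over all genes. Among genes of at least 1 CPM, 9.29% had such a size. Their median size was 0.149, against 0.146 for the members, so the members did not differ less than genes of at least 1 CPM by these measures. An unadjusted edgeR p under 0.05 was found for 5 rows (Fcnb, Mbl2, C5ar1, C7 and Cd59), against 14.6% of all genes, in the authors' deposited table. Among the 28 rows with a mean normalized count of at least 100, the 95% interval of the moderated value lay within 0.5 of 0 for 20, computed from the authors' deposited table. A p that misses the threshold does not show that a level was the same. The intervals are centred on moderated values, so they do not bound the unmoderated sizes, least of all at low counts. That of Fcnb leaves out its edgeR value of -1.91. The second C4a row, at a mean of 0.395 CPM, has an interval of only -0.18 to 0.18.

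Other genes of the complement system included pentraxins that were higher with pterostilbene. Of 26 genes listed as further regulators, receptors and recognition proteins 22 were measured, and in the edgeR columns that the authors deposited, 3 rose, 1 fell and 18 did not pass, while 3.41% of all genes were called. Of these, 5 of 6 recognition genes were measured and 2 rose, 7 of 8 receptor genes were measured and 1 fell, and 10 of 12 regulator genes were measured and 1 rose. Crp, the pentraxin that binds phosphocholine and can engage C1q, stood at 1579 FPKM in CDAA_PTS livers against 756 in CDAA livers, and rose by 1.05 on the log2 scale (adjusted p = 3.1e-07 by edgeR) per the authors' deposited table. Apcs, the related serum amyloid P gene, stood at 284 FPKM in CDAA_PTS livers against 191 in CDAA livers, and rose by 0.56 (adjusted p = 0.0084 by edgeR) per the authors' deposited table. Both lie on chromosome 13, but not side by side, with starts at 91054973 and 91426478 in rn6.

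Itgax, the alpha chain of complement receptor 4, is the receptor that fell, at 1.72 FPKM in CDAA_PTS livers against 3.41 in CDAA livers in the authors' deposited table, and it also stands in the macrophage list. Itgam was on the macrophage list but not among its 12 measured genes, and Ptx3 was not analysed here.

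Among the other brakes and lectins, several abundant genes had values near 0. Vtn, whose product vitronectin blocks pore insertion, stood at 1239 FPKM in CDAA_PTS livers against 1226 in CDAA livers, and Serping1, the C1 inhibitor gene, at 228 in CDAA_PTS and 221 in CDAA, in the authors' deposited table. Their edgeR log2 fold changes were 0.01 and 0.04 with adjusted p of 1.00 and 0.97 in the authors' deposited table. The collectin genes Colec10, Colec11 and Colec12 had edgeR values of 0.04, -0.03 and 0.01 in the authors' deposited table. Vsig4, the complement receptor of Kupffer cells, stood at 13.3 FPKM in CDAA_PTS livers against 13.8 in CDAA livers in the authors' deposited table. Hepatocyte markers, as a check of the labelled tissue, had 10 of 10 measured and none called, and Alb is listed at 0 FPKM in both groups although its mean is the highest of these by CPM. Of the remaining lists, 9 of 10 T and NK cell, 1 of 6 B cell, 7 of 8 endothelial and 6 of 6 cholangiocyte markers were measured with none called by edgeR. Of 5 adipocyte markers 3 were measured and 1 fell, while 1.95% of all genes were called lower by edgeR. It was Fabp4, with an edgeR log2 fold change of -0.94 in the authors' deposited table. The others were uncalled, with Cidea at 0.24 by edgeR and Adipoq at -0.69. Adipoq was barely detected, at 0.152 FPKM in CDAA_PTS livers against 0.227 in CDAA livers.

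**Figure D4:**
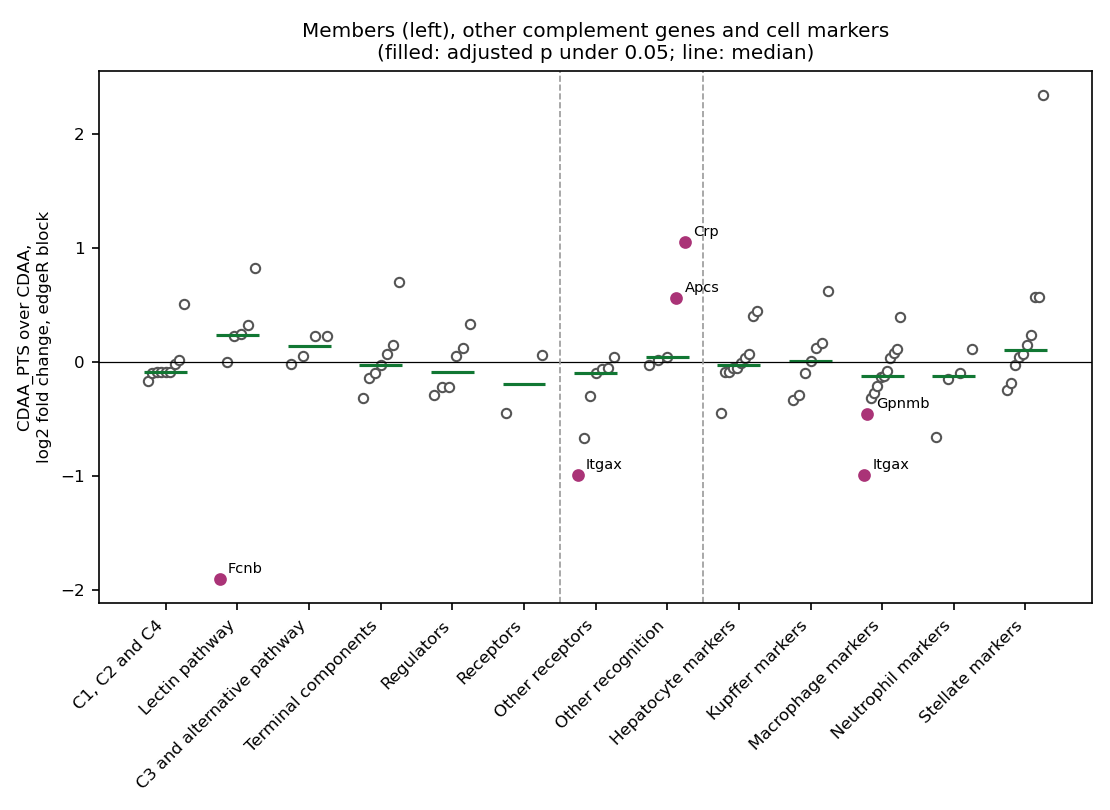
Change with pterostilbene (log2 of CDAA_PTS over CDAA, edgeR values of the authors' deposited table) for complement members by role, for further receptor and recognition genes and for cell type markers, 1 point per gene, filled where the adjusted p is under 0.05, with the median as a line. Among the members plotted only Fcnb is filled, whereas Crp and Apcs are filled above 0 and Itgax below.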

How the data were processed

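Liver RNA of 4 CDAA_PTS and 4 CDAA rats was made into TruSeq libraries, per the labels' protocols. Tools named in the submitters' processing notes, with no version, are TopHat2, Cufflinks, edgeR, DESeq2 and FastQC, and the build is rn6. How reads were counted and filtered, and the models' terms, are not given in the sources used. In the deposited file, 3 blocks of statistics were given for 1 comparison: a DESeq2 block by the authors with a signal (mean normalized count), a moderated log2 fold change, its SE, a Wald score and p-values; an edgeR block by the authors with a log2 fold change, log2 mean CPM and p-values; and a deposited Cuffdiff block with FPKM per group, their log2 ratio and p- and q-values. It has no value per rat and 0 other columns of per-sample values, so no count model, spread between rats or depth per library could be had, and the p-values rest on the authors' models. Whether libraries record strand is not given.

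Here the members were looked up by symbol, grouped by role and main cell source, and called where the authors' edgeR p, adjusted over 15115 genes, was under 0.05. The authors' adjusted values matched Benjamini-Hochberg when computed again, and that step was tested on simulated data. Intervals are the authors' DESeq2 value ± 1.96 SE. Signs were read as CDAA_PTS over CDAA because 512 of 513 calls of the authors' edgeR block match the sign of the FPKM ratio. Rows on 1 Cuffdiff locus were counted once in FPKM sums and Cuffdiff medians. Promoter windows came from RefSeq (GRCr8), matched by symbol, and their orientation was checked by the place of TATA letters; the NF-kB letters were shortened by 1 base after a longer spelling had been searched (matches in 0 hepatocyte-made and 1 myeloid-made member). Every member is accounted for; full statistics are given for members called in any block, with an unadjusted edgeR p of the authors under 0.05, or anchoring a role, and for called genes of the wider lists, of which some are not reported here. Members and lists were chosen with earlier results of these data known. Alternatives were the other blocks, other thresholds, a minimum of 1 CPM, centring and sums without the most abundant member. Python 3.11.15, pandas 2.3.3, numpy 2.4.6 and matplotlib 3.10.9 were used.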

Additional observations from a re-analysis of the deposited data

How the results depend on the processing

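The count of called members was 1 by edgeR of the authors' deposited table (Fcnb) and 1 when adjusted over genes of at least 1 CPM only. It was 2 by DESeq2 (with Cd59; 4.46% of genes called), 2 by Cuffdiff (with C7; 5.51%), 2 at an edgeR adjusted p under 0.1 (with Cd59; 5.27%) and 5 at an unadjusted p under 0.05. Fcnb passed in all 3 blocks of the authors' deposited table. The medians of the hepatocyte-made and myeloid-made members and the ratios of their summed FPKM moved by less than the median SE of their members under every alternative run, the hepatocyte-made median between -0.01 and 0.046. Its Cuffdiff value was -0.01 with each shared FPKM locus counted once, and 0.046 with such loci counted for every row on them, an alternative chosen after seeing the data. The SE used here is that of single genes, so it is a loose bound for a median or a ratio of sums and does not measure their spread. Within it, the hepatocyte-made ratio of summed FPKM went from 1.05 to 0.971 without C3. Of 68 values of members in the DESeq2 and Cuffdiff blocks, 61 kept sign and side of the threshold, 2 gained a call (Cd59 in DESeq2, C7 in Cuffdiff) and 5 changed sign, all in Cuffdiff and all uncalled. These were C2 at 0.046 and C4a at 0.15, which take the FPKM of a locus shared with Cfb and C4b, the second C4a row at -0.20, Masp2 at -0.043 and Cd55 at -0.0086. No paired analysis was possible because the table has no value per rat, and leaving out each rat was not run for the same reason. Low counts limit Fcnb, Mbl2, Cd55 and the second C4a row most, and an unknown depth per library leaves their counting error unstated.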

Other observations

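C1rl, a C1r-like protease gene near C1r that was chosen after its values were seen, had a log2 difference of 0.41 by edgeR (adjusted p = 0.23), while C1r had -0.17, in the authors' deposited table.

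Plasma proteins of the acute phase, which hepatocytes make beside complement, had 14 of 16 listed genes measured and none called by edgeR in the authors' deposited table. Their median edgeR log2 fold change was 0.11. The fibrinogen chains Fga, Fgb and Fgg stood at 0.39, 0.31 and 0.28 with edgeR adjusted p of 0.25, 0.46 and 0.50 in the authors' deposited table. Lbp, the lipopolysaccharide-binding protein, stood at 105 FPKM in CDAA_PTS livers against 159 in CDAA livers, with a log2 difference of -0.61 by edgeR (adjusted p = 0.085), and Cuffdiff calls it with a q of 0.0099, in the authors' deposited table. Haptoglobin (Hp) stood at 7986 FPKM in CDAA_PTS livers against 7437 in CDAA livers in the authors' deposited table.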
